A study of Mus musculus with 24 samples.

Results

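The clustered protocadherin genes of mouse chromosome 18 were examined for peaks of CTCF and of the cohesin subunit Rad21. Members were the genes on that chromosome whose symbols start with Pcdha, Pcdhb or Pcdhg in the gene annotation GENCODE vM1 (mouse build mm9). They number 25 of 37310 annotated genes, with 2 alpha, 22 beta and 1 gamma entries. The annotation places most alpha isoforms under the symbol Pcdha11 and all gamma isoforms under Pcdhgc5, so members were followed by transcript. The 47 member transcripts have 41 variable-exon starts, 10 in alpha, 22 in beta and 9 in gamma, which are named here by their transcripts (Pcdha11-207) or, for beta and Pcdha3, by their gene. A RefSeq gene table of another build (GRCm38.p6) lists 58 clustered protocadherin genes, 14 alpha, 22 beta and 22 gamma, so part of the alpha and gamma variable exons has no start in the annotation used, and the isoforms of c type could not be named singly.

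Clustered protocadherins are cell adhesion proteins best known from neurons, where each cell expresses a different small set of them as a surface identity. In the alpha and gamma subclusters, each variable exon has its own promoter and is spliced to constant exons at the end of the subcluster, while beta genes are single exons. CTCF is a DNA-binding protein with an oriented motif, known to bind most of the variable promoters. Cohesin, of which Rad21 is a subunit, extrudes chromatin loops and stops at CTCF, and looping between enhancers and variable promoters is known to take part in promoter choice.

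The study carried out chromatin immunoprecipitation with sequencing (ChIP-seq) in v-Abl transformed pro-B cell lines, which are immortal B-lineage progenitors, in work on V(D)J recombination. Every line was RAG2 deficient, carried the transgene Emu-Bcl2, which keeps arrested cells alive, and received the Abl inhibitor STI-571 at 3 µM for 4 days. CTCF was measured in the parental line without IAA (n = 3) and in the CTCF-degron line with IAA (n = 3), and Rad21 in the same 2 conditions (n = 3 each). Rad21 was also measured in the Rad21-degron line without IAA (n = 2) and with IAA (n = 2). IAA is an auxin that triggers destruction of a degron-tagged protein, given at 500 µM from 6 h before STI-571 and kept during it. For the CTCF degron, cell line and IAA differ together between the groups, so their parts cannot be told apart. The labels do not say that replicates were separate cultures, so each p-value measures the spread between libraries only, which may be technical.

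The deposited peak lists hold 46602 to 52296 mouse peaks for parental CTCF, 8159 to 15699 for CTCF in the CTCF-degron line and 29693 to 67768 for parental Rad21. Rad21 lists hold 15647 to 35181 peaks in the CTCF-degron line, 32887 and 22061 in the Rad21-degron line without IAA, and 3554 and 1356 with IAA. Human HCT116 cells, a colorectal carcinoma line, were spiked into all 4 Rad21-degron libraries and into replicates 2 and 3 of the other 2 Rad21 groups. Read depth is unknown, and the lists hold neither expression values nor markers of the cell type. A fold below is the authors' fold enrichment of a peak, used only to describe peaks.

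The region reached from 20 kb before the first alpha start to 200 kb after the last gamma exon, on chromosome 18 from 37069939 to 38201527 (mm9), 1131.6 kb in all. It holds the alpha subcluster (257.4 kb), an interval of 77.3 kb, the beta subcluster (256.4 kb), an interval of 152.9 kb and the gamma subcluster (167.5 kb). The 200 kb after gamma hold the genes Diap1, a formin that builds actin filaments, Hdac3, a histone deacetylase, Fchsd1 and Arap3. The 20 kb before alpha had no peak in any library. Positions below are on chromosome 18 of mm9 and give the union of overlapping peaks over the 16 libraries.

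**Figure D1:**
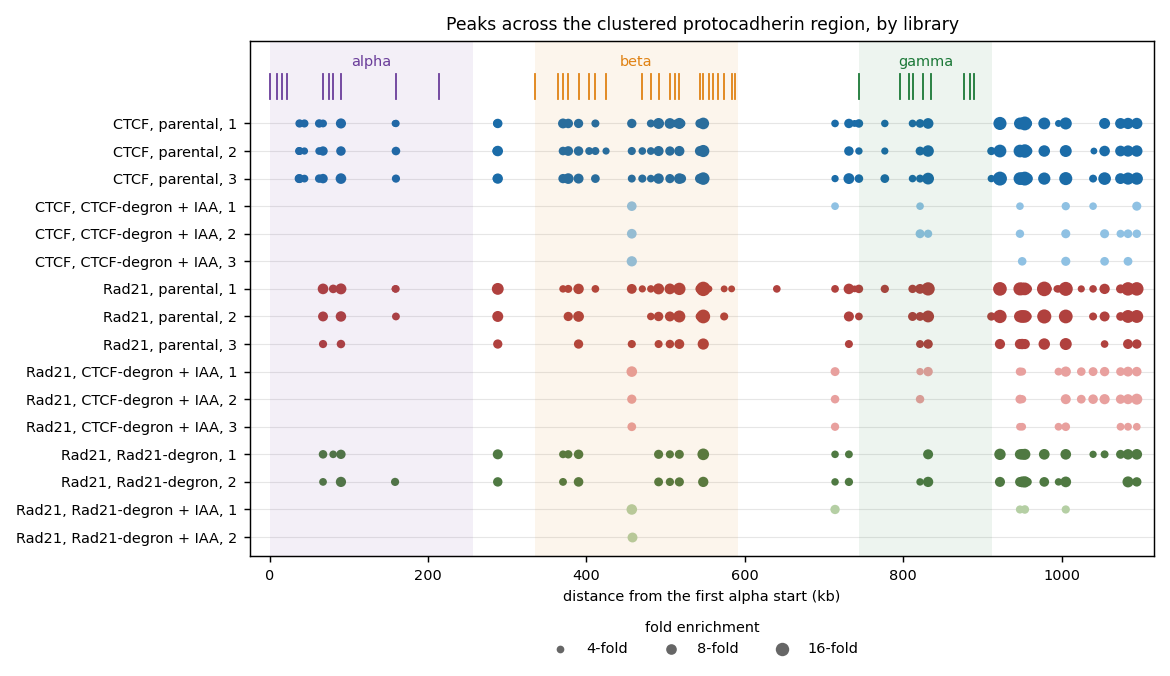
Each dot is a peak interval called in 1 library (rows), placed by its distance in kb from the first alpha start, with dot size for the authors' fold enrichment and colour for the group. Ticks at the top mark the 41 variable-exon starts; dots are dense in the parental libraries and absent over alpha in every library with IAA.

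Parental cells had CTCF and Rad21 in all 3 subclusters. CTCF peaks in the region numbered 45, 43 and 44 in the 3 parental libraries. Alpha held 7, 8 and 7 of them, beta 14, 15 and 14, and gamma 4, 4 and 5. Here and below peaks were placed by their centre, so those at the first gamma start (Pcdhgc5-207) count between beta and gamma. The 3 libraries were close to each other in every subcluster. Rad21 peaks numbered 50, 31 and 21, with 6, 3 and 2 in alpha, 15, 9 and 6 in beta and 4, 4 and 2 in gamma. The order of the Rad21 libraries follows the length of their lists. Per 1000 mouse peaks, the region held 0.717 ± 0.0180 Rad21 peaks (SD, n = 3) and 0.903 ± 0.0419 CTCF peaks (SD, n = 3).

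At the variable-exon starts, 14 of 41 (34.1%) had a CTCF peak within 1 kb in all 3 parental libraries. Over the 21646 protein-coding gene starts used for comparison, that share was 21.4%. This set leaves out some chromosomes, named with the motif search below, and is meant wherever all gene starts are given. A further 5 starts had CTCF in 1 or 2 libraries, and 22 had none. Counting any parental library, 19 of 41 starts had CTCF, where all gene starts had 39%. The 14 starts comprise 3 in alpha (Pcdha11-207, Pcdha11-203 and Pcdha11-201), 10 in beta (Pcdhb3, Pcdhb4, Pcdhb5, Pcdhb7, Pcdhb10, Pcdhb11, Pcdhb12, Pcdhb14, Pcdhb15 and Pcdhb16) and Pcdhgc5-207 in gamma. Per library, 16, 17 and 16 starts had CTCF.

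Among the variable-exon starts, the highest fold was at Pcdhb16, a single-exon beta gene near the middle of the region, on chromosome 18 from 37637002 to 37637889. CTCF folds there were 10.4, 11.7 and 12.9 in the 3 parental libraries. Rad21 folds were 20.9, 17.7 and 9.25 in parental cells and 10.3 and 7.37 in the Rad21-degron line without IAA. No library with IAA listed a peak at Pcdhb16.

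The next beta genes were Pcdhb14, with CTCF folds of 8.88, 7.17 and 8.04, and Pcdhb11, with 8.59, 6.99 and 7.55. Pcdhb4 had CTCF folds of 6.11, 6.35 and 8.08. At Pcdhb12 the folds were 8.10, 5.86 and 5.68. These 4 genes overlap in range, and all lie below the lowest Pcdhb16 value. Pcdhb15 had 5.43, 6.76 and 6.46, Pcdhb5 had 5.77, 6.08 and 6.79, and Pcdhb3 had 6.75, 4.95 and 5.82. The lowest of the 10 were Pcdhb7, with 4.32, 4.30 and 5.06, and Pcdhb10, with 4.23, 4.06 and 3.98.

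In alpha, Pcdha11-203 had CTCF folds of 7.07, 6.08 and 8.00. Pcdha11-207 had 4.17, 5.88 and 6.05, and Pcdha11-201 had 3.79, 4.93 and 4.47. In gamma, Pcdhgc5-207, the first gamma start, had 4.86, 3.74 and 4.90. The 3 folds of Pcdha11-203 lie above every fold of the other alpha starts and of Pcdhgc5-207.

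Several starts without CTCF lay in runs of neighbours. Pcdhb1, whose promoter is known to lack the conserved element of most variable promoters, had no CTCF or Rad21 peak in any library, and neither had its neighbour Pcdhb2. The last 6 beta genes, Pcdhb17 to Pcdhb22, had no CTCF peak in any library, though Pcdhb17, Pcdhb20 and Pcdhb21 had Rad21 in 1 or 2 parental libraries at folds from 3.34 to 4.39. In alpha, the first 4 starts and the last, Pcdha11-202, had no peak of either protein, nor had Pcdha11-206. Pcdha11-205 had Rad21 without CTCF in 1 parental and 1 Rad21-degron library. In gamma, 7 of 9 starts had no peak of either protein, among them the last 3 (Pcdhgc5-208, Pcdhgc5-205 and Pcdhgc5-203). Starts with CTCF in only part of the libraries were Pcdhb6, Pcdhb8, Pcdhb9, Pcdhb13 and Pcdhgc5-201, at folds from 3.56 to 4.44.

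**Figure D2:**
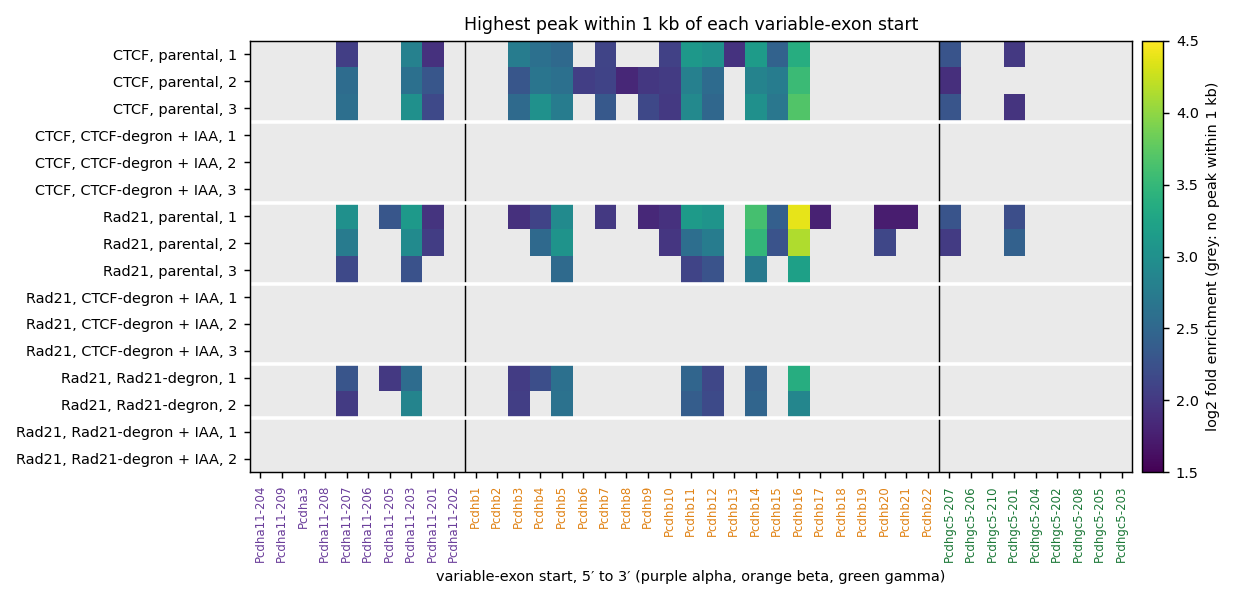
Columns are the 41 variable-exon starts in genomic order, rows the 16 libraries, and colour the log2 of the authors' fold enrichment of the highest peak within 1 kb, with grey for no peak. Pcdhb16 is brightest in CTCF and Rad21, and all rows with IAA are grey.

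All 14 starts with CTCF in every parental library had Rad21 in at least 1 parental library, and 7 had it in all 3 (Pcdha11-207, Pcdha11-203, Pcdhb5, Pcdhb11, Pcdhb12, Pcdhb14 and Pcdhb16). Of the 4619 other gene starts with CTCF in every parental library, 98.9% had Rad21 in at least 1 parental library and 69.0% in all 3. Counted over all 41 variable-exon starts, 7 (17.1%) had Rad21 in all 3 parental libraries and 20 in at least 1, where all gene starts had 22.1% and 45.3%. The counts per parental library were 20, 14 and 7 starts. Of the 20 starts with Rad21 in any parental library, 16 also had CTCF in any. Over the 14 starts, the mean CTCF fold and the Rad21 fold of parental replicate 1 had Pearson r = 0.911 and Spearman rho = 0.824 across starts, which are neighbouring sites measured in the same libraries. Over the 7 starts with Rad21 in replicate 3, r was 0.874 and rho 0.50.

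The CTCF sites of all 14 starts spanned the start itself. The centre of the CTCF peak lay at a median of -67.5 bp from the start (minus is upstream) over 49 pairs of a start and a parental library, and before the start in 40 of them. Of 78 CTCF peaks counted inside the subclusters over the 3 parental libraries, 48 (61.5%) lay within 1 kb of a variable-exon start. For parental Rad21 it was 40 of 51 peaks (78.4%). These counts take a site once for each library that called it, and the shares over the genome are not given here.

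Other CTCF sites lay away from listed starts. In alpha, intervals of low fold (3.64 to 5.36), at 37127658 to 37127940, 37133851 to 37134111 and 37152514 to 37152757, in introns of Pcdha11, had CTCF in all 3 parental libraries and Rad21 in none. Whether they border variable exons that the annotation leaves out was not tested. Between alpha and beta, sites at 37376995 to 37377254 and 37377646 to 37378447 had CTCF in all 3. Enhancers of the alpha subcluster are known to lie beyond its constant exons. The second of these sites had CTCF folds of 5.97, 7.72 and 7.38 and Rad21 folds of 10.8, 8.71 and 5.75. Between beta and gamma, the intergenic site at 37820988 to 37821620 had CTCF folds of 5.98, 6.07 and 8.48 and Rad21 folds of 7.85, 6.94 and 4.31. A gamma intron site at 37866538 to 37866723 had CTCF folds of 3.82, 3.58 and 5.11 and Rad21 in 1 parental library (4.54). Also in gamma, the site at 37920810 to 37921743, in an intron of Pcdhgc5, had CTCF folds of 8.13, 9.91 and 10.6 and Rad21 folds of 15.5, 10.9 and 5.89.

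The core CTCF motif was searched on both strands as CC, AG and GGC in that order, with 3 free bases after CC and 2 after AG. This form was picked from 4 because it gave the largest difference in percentage points between CTCF sites and sequence 5 kb away on chromosomes other than 12 and 18 (54.0% of 31291 sites against 10.8%). In windows from 300 bp before to 100 bp after the starts it occurred at 4 of 41 variable-exon starts, on the gene strand each time (Pcdha11-208, Pcdha11-201, Pcdhb1 and Pcdhb15), and at 2 of the 14 starts with CTCF in all 3 libraries. In the same windows at gene starts elsewhere, 6.82% held it on the gene strand and 5.66% on the other. Chromosomes 12 and Y are left out of these gene starts and of every gene-start share given above and below. Among intervals with CTCF in all 3 parental libraries, alpha held it in 5 of 6, all on the plus strand, along which the genes are read. At Pcdha11-203 the interval (37179465 to 37180702) is wider than its CTCF peaks (37179543 to 37179963), and the start window held no motif. Whether the motif there lies in a CTCF peak was not tested. Beta held it in 1 of 11, and gamma in 0 of 3. Between alpha and beta 1 of 2 intervals held it, on the minus strand. After gamma, 4 held it on the plus strand only, 4 on the minus strand only and 3 not at all. No match says only that these letters are absent from the interval.

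CTCF depletion was followed across the region next. In the CTCF-degron line with IAA, the CTCF lists held 7, 9 and 6 peaks in the region against 45, 43 and 44 in parental cells. No variable-exon start had a CTCF peak in any of the 3 depleted libraries, although 9.6% of all gene starts had CTCF in every one of them and 30.6% in at least 1. Alpha held no CTCF peak, beta 1, 1 and 2, and gamma 1, 2 and 0. The difference of 36.7 fewer peaks and of 16.3 fewer starts per library separated the groups without overlap. Each gave p = 0.10 in an exact two-sided permutation test, the smallest p that 3 against 3 libraries allow, and 0.35 after Benjamini-Hochberg adjustment over the 14 tests made.

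The depleted lists are shorter, and members rank in the middle of the parental lists. The 14 start sites had a median fold at the 64.4th percentile of their parental lists. With every list shortened to 8159 mouse peaks, only 1.67 ± 1.15 starts (SD, n = 3) had CTCF in parental cells and 0 in each depleted library. Region peaks were then 12 ± 1.73 and 5 ± 1.73 (SD, n = 3 each).

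Of gene starts with CTCF in all 3 parental libraries, 27.9% had no peak in any depleted library, against 14 of 14 member starts. In single depleted libraries the other gene starts kept 62.4%, 62.8% and 31.8%, and the members 0% in each. The mean difference was -52.3 percentage points (p = 0.25 by an exact sign-flip permutation over libraries, which cannot go lower with 3). Among 26997 other CTCF sites of the same range of parental ranks, at starts or not, 75.9% had no peak in any depleted library.

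**Figure D3:**
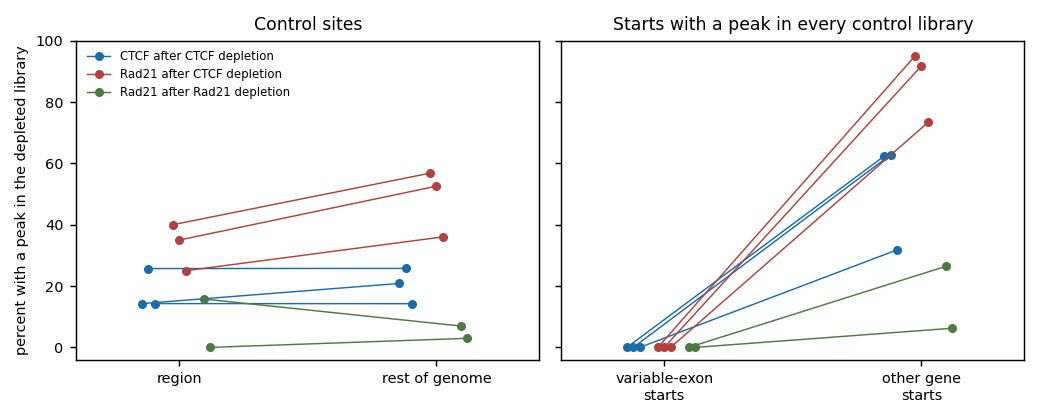
The vertical axis is the percent of control sites (left) or of starts with a peak in every control library (right) that had a peak in each depleted library, and each line joins the 2 values of 1 library. On the right the variable-exon starts sit at 0 in all 8 libraries and other gene starts between 6.25% and 95.0%, while on the left region and rest lie closer together.

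A control site is an interval with a peak in every control library. Over the whole region 35 CTCF control sites were found, of which 25 had no peak in any depleted library, 8 in some and 2 in all. The genome-wide shares were 71.8% with none and 12.8% with all. Inside the subclusters 17 of 20 had none. In the 200 kb after gamma it was 4 of 11, with 6 in some and 1 in all. The percent kept was 18.1 ± 6.60 in the region and 20.3 ± 5.77 in the rest of the genome (SD, n = 3 libraries), which differed by less than the spread between libraries (exact sign-flip permutation p = 0.50).

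Neither of the 2 CTCF sites kept in every depleted library lies at a variable-exon start. One lies between Pcdhb8 and Pcdhb9 at 37546890 to 37547559, with CTCF folds of 5.86, 4.43 and 4.26 in parental and 6.26, 6.39 and 7.29 in depleted cells. It was called in 13 of 16 libraries, including both Rad21-degron libraries with IAA but neither of those without. The central 31 bp of this interval occur 168 times in the reference, while the other 14 intervals with a peak in a depleted library have single-copy centres. The share of its signal that comes from other copies was not tested. The other overlaps the start of Diap1 and an exon at the far end of Hdac3, at 38094192 to 38095910, with CTCF folds of 11.4, 11.1 and 14.7 in parental and 4.61, 5.47 and 5.58 in depleted cells. It had a peak in 15 of 16 libraries.

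The 2 sites with the highest mean parental folds were not among those kept. In introns of Diap1, the sites at 38042886 to 38043826 (CTCF folds of 18.02, 16.5 and 18.3) and at 38011532 to 38012442 (14.8, 13.7 and 18.6) were the strongest of the region and had no CTCF peak after depletion. In gamma, the site at 37920810 kept CTCF in 1 of 3 depleted libraries at a fold of 4.54, and the intron site at 37910897 to 37911334 in 2 of 3. The sites between alpha and beta had no CTCF peak in any depleted library.

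Rad21 in CTCF-depleted cells was taken next. Some CTCF peaks remained in the region, so these lists do not show cohesin in the full absence of CTCF. The Rad21 lists held 15, 12 and 9 peaks in the region, against 50, 31 and 21 in parental cells. No variable-exon start had Rad21 in any depleted library, while 26.4% of all gene starts had Rad21 in every one of these libraries and 42.8% in at least 1. Alpha held no Rad21 peak, beta 1 in each library, and gamma 2, 1 and 0. The 200 kb after gamma held 10, 9 and 7, against 18, 12 and 9 in parental cells. The ranges overlap, and the count was lower in 3 of 3 same-numbered pairs.

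The groups did not overlap in region peaks (22.0 fewer per library) or in starts (13.7 fewer), each with p = 0.10 in the exact two-sided permutation test, the smallest possible. Parental replicate 1, without spike-in and with the longest list, carries part of this: without it the differences were -14.0 peaks and -10.5 starts. With lists of 15647 mouse peaks each, 6.00 ± 1.00 starts had Rad21 in parental cells and 0 in depleted cells (SD, n = 3), and region peaks were 17.3 ± 2.08 and 10.0 ± 1.00.

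All 7 starts with Rad21 in every parental library had none after CTCF depletion, against 4.93% of the compared gene starts called in the same way. The other gene starts kept Rad21 in 95.0%, 91.8% and 73.3% of cases in the 3 depleted libraries, and the members in 0%. The mean difference was -86.7 percentage points (exact sign-flip permutation p = 0.25, the smallest possible). Among 15203 other Rad21 sites in the members' range of ranks, at starts or not, 48.4% had no peak in any depleted library.

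Control sites of Rad21 numbered 20 in the region, with 12 without a peak in any CTCF-depleted library, 3 with one in some and 5 with one in all, where the genome has 41.5% with none and 35.5% with all. Within the subclusters 7 of 9 had none and 0 had a peak in all. All 5 sites with a peak in every library lie after gamma. They are the site at the start of Diap1, the sites at 38036703 to 38037731 and 38039602 to 38040479 in introns of Diap1, and 2 sites beyond Arap3, at 38173187 to 38174043 and 38184279 to 38185087. Each of the 5 also had a CTCF peak in CTCF-depleted cells. CTCF was called in 3 of 3 depleted libraries at the start of Diap1 and in 2 of 3 at each site beyond Arap3. At the intron sites, in the order given, CTCF was called in 2 of 3 and 1 of 3. At the start of Diap1, Rad21 folds were 18.8, 17.7 and 11.2 in parental and 7.25, 6.86 and 4.91 in depleted cells. The Diap1 intron site at 38067472 to 38068351, with the highest Rad21 folds of the region in parental replicates 1 and 2 (22.0 and 19.3, with 9.78 in replicate 3), had none. The percent kept was 33.3 ± 7.64 in the region and 48.5 ± 11.0 elsewhere (SD, n = 3), lower in 3 of 3 libraries (exact sign-flip permutation p = 0.25).

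The start of Taf7, a subunit of the general transcription factor TFIID, lies between beta and gamma. At 37803257 to 37804356, Rad21 was called in 1 of 3 parental libraries (fold 4.03) and in 3 of 3 CTCF-depleted libraries (5.32, 4.85 and 4.55). The Rad21-degron line had a peak in this interval in 2 of 2 libraries lacking IAA (3.89 and 3.80), but these peaks did not overlap each other. With IAA, 1 of 2 libraries had one (5.80). CTCF was called there in 2 of 3 parental and 1 of 3 CTCF-depleted libraries. Over the 36 Rad21 peaks listed in the region for the 3 CTCF-depleted libraries, 0 lay within 1 kb of a variable-exon start and 11 lay within 1 kb of the start of another gene. These 11 are repeated calls at the starts of Taf7, Diap1, Hdac3 and Fchsd1, counted again in each library. The share over all Rad21 peaks of the genome is not given here.

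**Figure D4:**
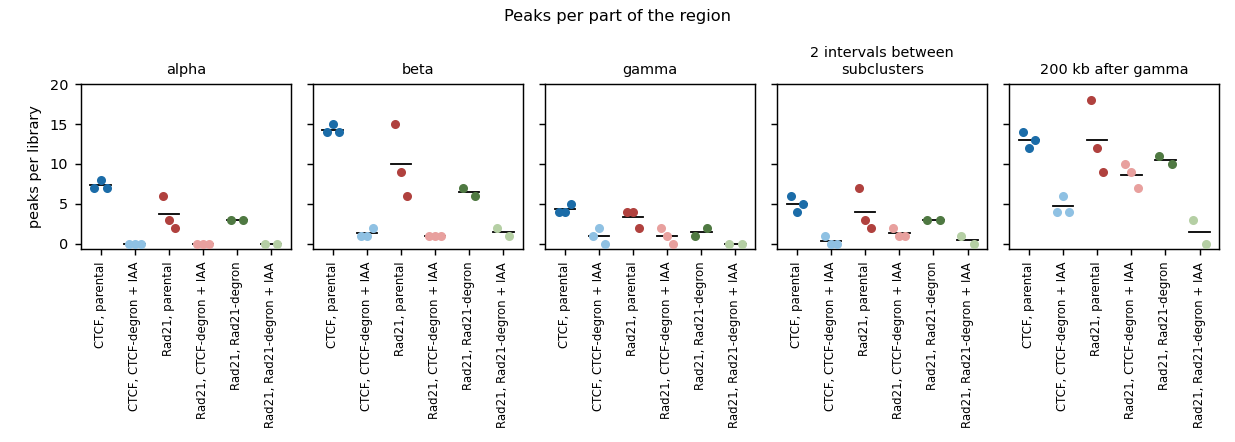
Each dot is the number of peaks of 1 library in the part of the region named above the panel, and the black line is the group mean. Alpha is at 0 in every library with IAA, while Rad21 after gamma is at 7 to 10 in the CTCF-degron line against 9 to 18 in parental cells.

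Rad21 depletion was followed in the Rad21-degron line, where line is constant and IAA differs. Without IAA, region peaks numbered 25 and 24, and 10 and 8 variable-exon starts had Rad21. In both libraries it was found at 8 starts (Pcdha11-207, Pcdha11-203, Pcdhb3, Pcdhb5, Pcdhb11, Pcdhb12, Pcdhb14 and Pcdhb16), where over all gene starts 13% had it in both and 27.2% in at least 1. The 8 starts include all 7 that had Rad21 in every parental library. No gamma start had Rad21 in this line. Compared with parental Rad21, region peaks differed by -9.5 and starts by -4.67, with overlapping groups (exact permutation p = 0.60 and 0.50), and without parental replicate 1 the differences were -1.5 for each.

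With IAA, the region held 6 and 1 peaks, and no start had Rad21. Of all gene starts, 0.896% had Rad21 in both of these libraries and 9.27% in at least 1. The groups did not overlap in region peaks (21.0 fewer) or starts (9 fewer), with exact permutation p = 0.333, the smallest that 2 against 2 libraries allow. With lists shortened to 1356 mouse peaks each, the libraries without IAA had from 0 to 1 starts with Rad21.

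Of gene starts with Rad21 in both libraries without IAA, 71.6% had none in either library with IAA, against 8 of 8 member starts. Other gene starts kept 26.4% and 6.25%, and the members 0% (exact sign-flip permutation p = 0.50, the smallest possible). Control sites in the region numbered 19, of which 16 had no peak with IAA, 3 in 1 library and 0 in both, against 92.7% with none and 2.61% with both over the genome. All 9 sites inside the subclusters had no peak. The 3 partly kept sites lie in introns of Diap1 and at the start of Diap1, all in replicate 1. At the start of Diap1 the folds were 8.01 and 8.16 without IAA and 4.51 in that library. The percent of control sites kept was 7.89 ± 11.2 in the region and 4.96 ± 2.83 elsewhere (SD, n = 2). By library it was 15.8% against 6.97% in replicate 1 and 0% against 2.96% in replicate 2.

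Protocadherins outside the clusters gave a comparison at single promoters. Of 12 such genes, 2 had CTCF in all 3 parental libraries and 10 had none in any. Over all gene starts, 21.4% had CTCF in all 3 and 39% in at least 1. Pcdh1, which also lies on chromosome 18, had a mean CTCF fold of 8.01 and a mean Rad21 fold of 11.4 in parental cells, and it had no peak of either protein in CTCF-depleted cells. Pcdh11x, on the X chromosome, had a mean CTCF fold of 3.88 in parental cells, and it kept CTCF in 1 of 3 and Rad21 in 3 of 3 CTCF-depleted libraries. Pcdh17 had Rad21 in all 3 parental libraries without CTCF in any, and it kept Rad21 in 1 of 3 CTCF-depleted libraries (fold 3.68).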

How the data were processed

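The deposited broadPeak lists of 16 libraries were used, and the 8 input samples were not. Reads were aligned by the authors to a hybrid of mm9 and a further sequence, per the labels, and Bowtie2 2.2.8 and SAMtools 1.8 are named in the submitters' processing notes. The peak caller and its threshold are not given in the sources used here. The deposited lists give a fold enrichment (a linear ratio), −log10 p-values and q-values, and a score, all as the authors made them for single libraries. Their −log10 p served only to shorten lists and their −log10 q only as a filter.

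Mouse peaks are those on the autosomes and X. With Python 3.11.15 and NumPy 2.4.6, peaks were assigned to intervals by their centre and to a start when an edge lay within 1 kb. Starts of 1 gene within 1 kb of each other were merged. A site is the union of overlapping control peaks, kept when a peak overlapped it by 1 bp. Exact two-sided permutation and sign-flip tests used libraries as units and were tested on simulated data. Members, lists and named sites were chosen with earlier results of these data known. The starts with CTCF in all 3 parental libraries are named with their CTCF folds. By interval, the 3 control sites of each protein ranked highest on average by fold within the control lists are named. So are all sites kept in every depleted library. Folds are given for part of these sites only, and Rad21 folds for part of the starts. Other settings tried were thresholds, windows, joined peaks, site rules, shortened lists, spike-in libraries alone, each library left out and a replicate block. Gene-level starts had been planned; variable-exon starts replaced them because the annotation merges isoforms.

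Same-numbered Rad21 libraries of the parental and CTCF-degron lines deviated together from their group means (r = 0.329, 0.404 and 0.579 over 8907 sites). So did parental replicate 1 with CTCF-degron replicate 2 (r = 0.341) and parental replicate 2 with CTCF-degron replicate 1 (r = 0.137). The check therefore does not settle whether the numbers pair the libraries. No sequence is printed.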

Additional observations from a re-analysis of the deposited data

How the results depend on the processing

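Of 165 recomputed values, 152 kept their sign or, for the percent of control sites kept, stayed within the SD of the main value. A kept sign does not mean a kept size. Of the rest, 5 percents moved by more than that SD and 8 differences changed sign. No depleted library had a variable-exon start with a peak. Leaving out peaks or libraries therefore could not turn the difference in starts positive in the depletions. No test could pass the threshold of 0.05 with these group sizes. The difference between region and rest in percent of control sites kept stayed negative for Rad21 after CTCF depletion, while it changed sign in the other 2 comparisons. For Rad21 after Rad21 depletion the difference was 2.93 in the main setting. It was -2.05 with −log10 q of at least 3 and -2.38 with at least 50% of the site covered. With shortened lists it was -5.19, which rests on only 1 control site in the region. For CTCF it was 0.127 with −log10 q of at least 3 and 2.09 against the rest of chromosome 18. The percent of control sites kept in the region moved for CTCF to 26.7 with shortened lists and 2.86 with 50% covered, and for Rad21 after CTCF depletion to 22.2, 13.3 and 23.5 with −log10 q of at least 3, with 50% covered and with sites of at least 1 control library. Rad21 in the Rad21-degron line against parental changed sign with shortened lists, to 2.67 region peaks and 0.833 starts.

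Leaving out each library gave -37.5 to -36.0 region peaks and -16.5 to -16.0 starts for CTCF, -28.5 to -14.0 and -17.0 to -10.5 for Rad21 after CTCF depletion, -23.5 to -18.5 and -10.0 to -8.00 for Rad21 after Rad21 depletion, and -16.0 to -1.50 and -8.00 to -1.50 for the Rad21-degron line against parental. Region minus rest ranged from -3.31 to -0.0140, from -17.2 to -11.8 and from -2.96 to 8.82 points in the first 3, and the last range crosses 0 without Rad21-degron replicate 1 with IAA.

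The counts depend on list length. Shortened lists gave -7.00 region peaks and -1.67 starts for CTCF, -7.33 and -6.00 for Rad21 after CTCF depletion, and -2.00 and -0.50 for Rad21 after Rad21 depletion. With the replicate block (paired sign-flip), the differences stayed at -36.7 and -16.3 (exact p = 0.25), -22.0 and -13.7 (exact p = 0.25), and -21.0 and -9.00 (exact p = 0.50), and it changed no call. Same-numbered CTCF libraries did not deviate together (r = 0.241, -0.206 and -0.325), and the 2 Rad21-degron pairs had r = 0.162. For the Rad21-degron line against parental the block gave -16.0 and -8.00 over 2 pairs. The 5′-most start of each gene was the measure planned at first, and it was added back as an alternative after seeing the data. It gave -12.7, -10.0 and -6.50 genes in the 3 depletions. Read depth is unknown, so a missing peak may lie below the authors' threshold.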
